A study of Mus musculus with 8 samples.

Results

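Collagens are the structural proteins that hold the cochlear duct together, and their genes were described here in mouse basilar membrane, dissected at postnatal day 6. The genes were taken by name alone: protein-coding genes of the expression table whose symbol reads Col, a number, a, and a number. This gave 44 genes of 78317 in all, and 39 of them averaged 1 TPM or more across the 8 libraries and were tested. TPM, the share of a library's transcripts scaled to a fixed total and by transcript length, is used below to compare levels between genes. Such comparisons rest on the transcripts counted for each gene, which the deposited values do not show. The 8 libraries form 2 groups of 4, called hete and homo in their titles. The genotype label of the hete group is WT and that of the homo group is Dnajc17 cKO, a conditional knockout, so the labels do not settle which alleles the hete animals carried. The sources used here do not give the strain, the driver of the deletion or the deleted part of Dnajc17, and they do not say whether each library came from 1 animal or from a pool. The p-values below therefore measure the spread between libraries, which may be technical.

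A collagen molecule is a rope of 3 chains wound around each other, each chain a long repeat in which glycine recurs at a fixed spacing. Fibrillar collagens build the striated fibrils of cartilage, bone and skin. In the ear a thinner type II fibril, which also holds types XI and IX, fills the tectorial membrane, the sheet that lies over the hair cells. FACIT collagens bind to the surface of fibrils, type IV collagens form the mesh of basement membranes, and types VI and VIII form beaded filaments and open networks. Mutations in the genes of types II, IX and XI, and in Col4a3, Col4a4 and Col4a5, are known causes of hearing loss, for the type IV genes together with kidney disease.

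The labelled tissue was checked against marker genes. All 12 markers of the sensory epithelium passed the filter on low values. Their summed level was 4732 to 5176 TPM in hete and 5617 to 5995 TPM in homo. Most of it was Tectb, with means of 4078 TPM in hete and 4726 TPM in homo, followed by Tecta with 453 and 651 TPM. The difference in the sum between groups therefore mostly follows these genes and does not measure the amount of sensory epithelium. Lists for the tissue around it were read as well. Of 12 cartilage markers 11 passed, with a sum of 3159 to 4366 TPM over the 8 libraries, Matn3 being listed at 0 in 4 libraries. Most of this sum was Epyc, Cnmd and Ucma (hete means 1553, 1467 and 407 TPM), while Acan had 11.2 TPM and Comp 2.6 TPM. A sum carried by so few members does not by itself show that cartilage was taken. All 11 bone markers passed with 792 to 1470 TPM, as did all 12 mesenchyme and fibrocyte markers. Between 28159 and 28969 genes lay above 0 in a library. Dnajc17, the targeted gene, stood at 26.51, 25.45, 25.09 and 22.06 TPM in the hete libraries and at 29.33, 27.65, 31.08 and 18.04 TPM in the homo libraries, so it was not lower in homo (log2 fold change 0.07, SE 0.15). It therefore does not check the labels, and hete and homo below name the libraries as labelled.

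Collagen transcripts took 1.09 to 1.29% of all TPM in the hete libraries and 1.10 to 1.23% in the homo libraries. Their sum was 12183 ± 892 TPM in hete and 11619 ± 536 TPM in homo (SD, n = 4 each), and the groups overlapped. The fibrillar class held 49.4% of it on average and the FACIT class 42.4%, with 2.59% in type IV, 1.71% in the multiplexins, 1.69% in type VI and 0.986% in types VIII and X. Col2a1, Col9a1, Col9a3, Col9a2 and Col11a2, genes of types II, IX and XI, were the only 5 members with a mean above 1000 TPM. Bulk TPM does not tell which part of the dissected tissue these transcripts came from. Col11a1, the other type XI gene, had a mean of 192 TPM. Together the 5 took 71.3 to 75.9% of the collagen TPM of a library. A further 9 members had means between 100 and 1000 TPM, 16 between 10 and 100 TPM and 9 between 1 and 10 TPM. In the order of mean levels, the ranges over 8 libraries were apart for 7 of 38 neighbouring pairs, 5 of which lie among the 8 highest members.

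**Figure D1:**
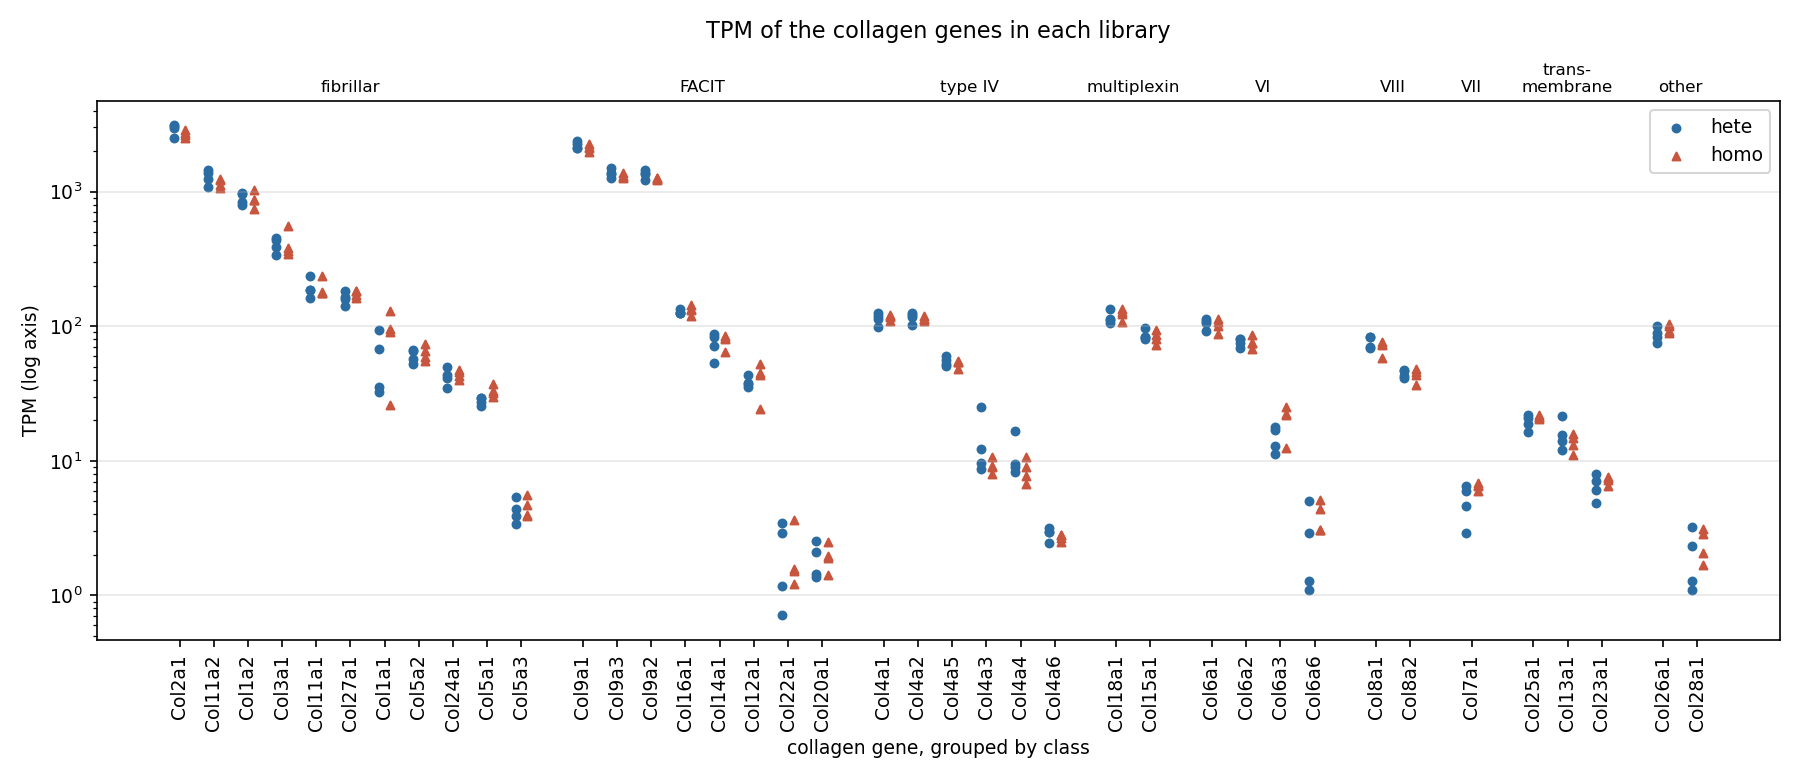
TPM on a log axis for the 39 tested collagen genes, grouped by class and ordered by mean level within a class; each circle is a hete library and each triangle a homo library. Col2a1, Col11a2 and the 3 type IX genes have means above 1000 TPM, Col11a1 has one of 192 TPM, and the points of Col1a1 spread from 26.04 to 129.66 TPM.

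Start regions of type IX and XI genes are shown because these partners in the type II fibril differed widely in level. That of Col5a1 was added for the gene whose groups did not overlap. The RefSeq promoter table, on GRCm38.p6, held 35 of the 44 genes in 38 windows; Col12a1, Col14a1, Col1a1, Col22a1, Col26a1, Col2a1, Col4a3, Col5a2 and Col9a3 were not in it. The 250 bases before the start are printed 5′ to 3′ for 4 genes whose stretch holds no annotated exon in GENCODE M21. Capitals mark the 3 motifs searched for. The TATA box was spelled TATAAA. The CCAAT box was spelled as its name. The GC box was spelled GGGCGG. All were sought on both strands, and overlapping matches were allowed. The stretches lie at chr1:24177360-24177609 (plus strand) for Col9a1, chr17:34038888-34039137 (plus strand) for Col11a2, chr3:114030290-114030539 (plus strand) for Col11a1 and chr2:27886175-27886424 (plus strand) for Col5a1.
Col9a1: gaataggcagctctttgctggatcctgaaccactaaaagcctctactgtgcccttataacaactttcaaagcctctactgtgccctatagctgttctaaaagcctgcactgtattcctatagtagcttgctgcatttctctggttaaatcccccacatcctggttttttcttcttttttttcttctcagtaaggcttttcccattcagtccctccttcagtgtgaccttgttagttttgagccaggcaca
Col11a2: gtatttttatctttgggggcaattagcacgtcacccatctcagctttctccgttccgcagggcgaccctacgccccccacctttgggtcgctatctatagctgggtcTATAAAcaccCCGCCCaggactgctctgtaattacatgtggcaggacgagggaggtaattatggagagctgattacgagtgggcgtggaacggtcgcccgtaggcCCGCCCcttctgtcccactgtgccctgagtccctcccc
Col11a1: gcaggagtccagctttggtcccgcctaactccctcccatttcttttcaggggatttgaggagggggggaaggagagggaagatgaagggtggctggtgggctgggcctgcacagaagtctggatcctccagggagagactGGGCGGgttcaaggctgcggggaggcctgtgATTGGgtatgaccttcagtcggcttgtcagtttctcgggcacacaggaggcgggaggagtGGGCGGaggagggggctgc
Col5a1: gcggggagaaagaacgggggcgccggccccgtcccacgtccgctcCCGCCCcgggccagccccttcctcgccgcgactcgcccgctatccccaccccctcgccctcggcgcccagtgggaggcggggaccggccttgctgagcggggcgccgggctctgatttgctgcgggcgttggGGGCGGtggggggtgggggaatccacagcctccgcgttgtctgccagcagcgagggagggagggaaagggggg

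The stretch of Col11a2 holds 2 GC boxes and letters of the TATA box, which begin 143 bases before the listed start. That of Col11a1 holds a CCAAT box and 2 GC boxes, that of Col5a1 2 GC boxes, and the upstream start of Col9a1 none of the 3. Col9a1 has a second start in the table, and the deposited values do not separate its 2 starts. Among all 32851 windows in RefSeq's table, a share of 12.4% held the TATA box, 33.8% the CCAAT box and 32.7% the GC box. Of the 38 collagen windows 5, 13 and 22 did. A match is a description of letters and no evidence of a bound factor.

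No collagen gene changed between homo and hete at an adjusted p under 0.05 (0 of 39 by limma-trend). The share of all 17811 tested genes that changed was 0.0112%, or 2 genes, with 0.00561% higher and 0.00561% lower in homo. At an unadjusted p under 0.05 there was 1 collagen, Col5a1, which is 2.56% of 39, against 6.05% of all tested genes, or 3.56% counting those higher in homo. Of the 39 genes 20 were higher and 19 lower in homo, 51.3% higher against 56.3% of all tested genes. The median log2 fold change was 0.01 for the collagens and 0.02 for all genes tested. These are differences of log2(TPM + 1), in which low genes appear to differ less than they do. The absolute log2 fold change was under 0.25 for 33 of 39 collagens, and for 85.5% of all tested genes. For 29 of 39 the 95% interval lay between -0.5 and 0.5, so a larger difference is outside the interval of those members only. In bulk tissue fewer cells of a type and less RNA per cell cannot be told apart. The authors' deposited table of gene ontology terms lists 387 terms drawn from 142 genes, 13 with an adjusted p under 0.05, and no term in the authors' deposited table includes a collagen gene. Those 142 genes are a larger set than the 2 called here, and how they were selected was not examined.

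**Figure D2:**
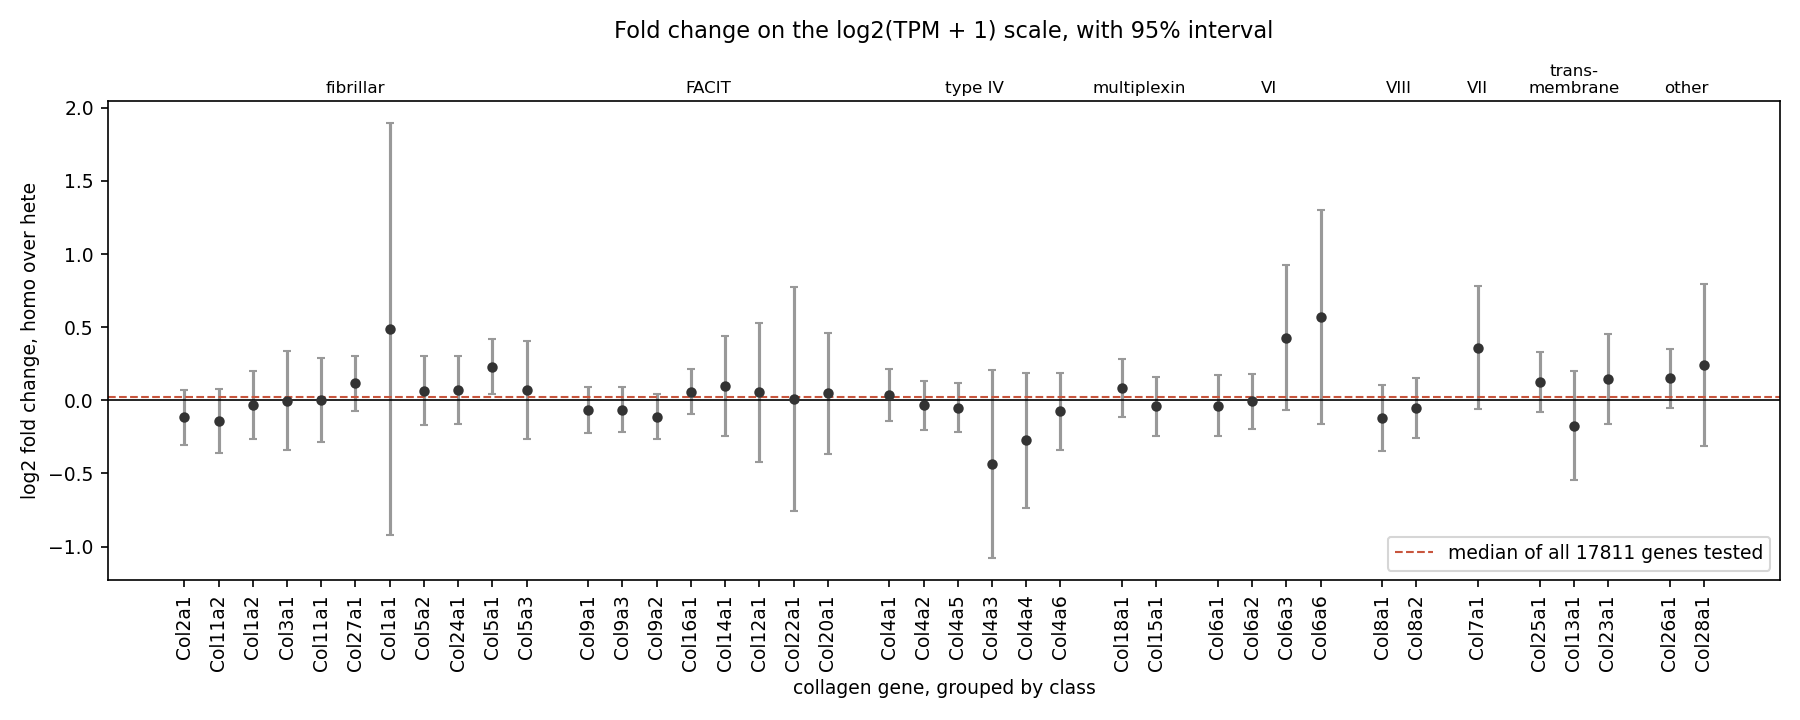
Log2 fold change of homo over hete for the 39 tested collagen genes, with the 95% interval from limma-trend as bars and the median of all 17811 tested genes as a dashed line. The interval of Col5a1 alone does not reach 0, and Col1a1 has the widest interval, from -0.92 to 1.90.

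Col2a1, the single chain gene of type II collagen, was the highest collagen. Hete replicates 1 to 4 had 2516, 2973, 3058 and 3109 TPM of it, and the homo libraries 2876, 2631, 2704 and 2517 TPM. The groups overlapped, with hete replicate 1 as low as the lowest homo library (-0.12 in log2 fold change, SE 0.08, with an adjusted p of 0.874 by limma-trend). Col11a2, a chain of type XI collagen, which lies inside the type II fibril and limits its width, had 1077, 1383, 1434 and 1247 TPM in hete and 1063, 1224, 1115 and 1242 TPM in homo. Its lowest hete and homo values were nearly equal (-0.14, SE 0.10; adjusted p = 0.874). Col11a1, its partner in the same molecule, stood at 192 ± 31.8 TPM in hete and 192 ± 28.7 TPM in homo (SD over 4 libraries each; log2 fold change -0.00, SE 0.13). Within a library Col11a2 was 4.52 to 7.79 times Col11a1, with overlapping groups. The ratio was lowest in homo replicate 1 and hete replicate 4, the libraries with the most Col11a1 (235.04 and 237.50 TPM, against 162.91 to 184.87 TPM in the other 6).

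The 3 chain genes of type IX collagen, which sits on the type II fibril and reaches out from it, all had means above 1000 TPM. Col9a1 had 2099, 2247, 2375 and 2107 TPM in hete and 2249, 2137, 2092 and 1956 TPM in homo. Col9a2 had 1222, 1343, 1385 and 1453 TPM in hete and 1213, 1271, 1238 and 1272 TPM in homo, the homo values lying at or just below the lower part of the hete range. Col9a3 had 1262, 1372, 1497 and 1350 TPM in hete and 1367, 1294, 1304 and 1272 TPM in homo. All 3 overlapped between groups, at log2 fold changes of -0.07 (SE 0.07), -0.11 (SE 0.07) and -0.06 (SE 0.07). Col9a3 was 0.929 to 1.13 times Col9a2 in a library, and Col9a1 was 1.45 to 1.85 times Col9a2. The ranges of Col9a3 and Col9a2 overlapped, while every Col9a1 value lay above every value of both. Col2a1, Col11a2 and the 3 type IX genes had lower means in homo, and none passed the test. Of the 12 sensory epithelium markers none passed it either, and 4 had an unadjusted p under 0.05, against 6.05% of all tested genes. Otog (0.28, SE 0.07), Tectb (0.21, SE 0.07) and Tecta (0.56, SE 0.18), which encode non-collagen proteins of the tectorial membrane, were the 3 of 12 without overlap, with homo above hete as in 2.58% of all tested genes. Otof, a hair cell gene, was the other one, at -0.30 (SE 0.10) with overlapping groups, and Otoa, whose product attaches the tectorial membrane, stood at 0.05 (SE 0.10). Tecta, Otof and Otoa were named after their values were seen.

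Type I collagen, the main collagen of bone, tendon and most connective tissue, is usually built with more Col1a1 than Col1a2 chains. Here Col1a2 had 796, 959, 841 and 972 TPM in hete and 1020, 865, 867 and 746 TPM in homo. Col1a1 had 35.32, 67.96, 32.52 and 93.35 TPM in hete and 129.66, 94.75, 89.76 and 26.04 TPM in homo. Within each library Col1a1 was thus only 0.0349 to 0.127 times Col1a2, in the opposite order to the chains of the common molecule. The deposited values do not show which transcripts of either gene were counted, and the cause of this ratio was not tested. Col1a1 varied 4.98-fold between its lowest and highest library, against a median of 1.40-fold over the tested collagens and 1.45-fold over all tested genes. It was not alone: 9 tested collagens varied more than 2-fold, among them Col22a1 (5.07-fold) and Col6a6 (4.69-fold), whose means were only 2.02 and 3.23 TPM. By limma-trend Col1a1 had a log2 fold change of 0.49 (SE 0.59) with an adjusted p of 0.937, and 0.98 without homo replicate 4 or 0.22 without homo replicate 1.

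The low Col1a1 libraries were hete replicate 1, hete replicate 3 and homo replicate 4, and bone markers other than Spp1 were low in the same libraries. Bone markers without Spp1, which other cells of the ear also express, summed to 122, 622, 212 and 526 TPM in hete replicates 1 to 4 and to 511, 355, 399 and 116 TPM in homo. Of the 11 bone markers, 10 had their lowest 3 values in these 3 libraries, and Spp1, the member left out of the sum, did not. The same 3 libraries were the lowest for 4 collagens: Col1a1, Col1a2, Col8a1 and Col22a1. This held for 3.59% of all tested genes, and the 3 libraries were picked after the Col1a1 values were seen. No bone marker was listed at 0 in all libraries, and sums of the whole bone list were 792 to 1470 TPM in hete and 910 to 1388 TPM in homo. Most of that whole sum was Spp1, with means of 732 TPM in hete and 771 TPM in homo, so it varied less than the sum without Spp1. The bone list had a median log2 fold change of 0.08 and its 2 members with the smallest p were Ifitm5 (0.34) and Spp1 (0.08). The part of the bone marker level in the Col1a1 values was not tested.

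**Figure D3:**
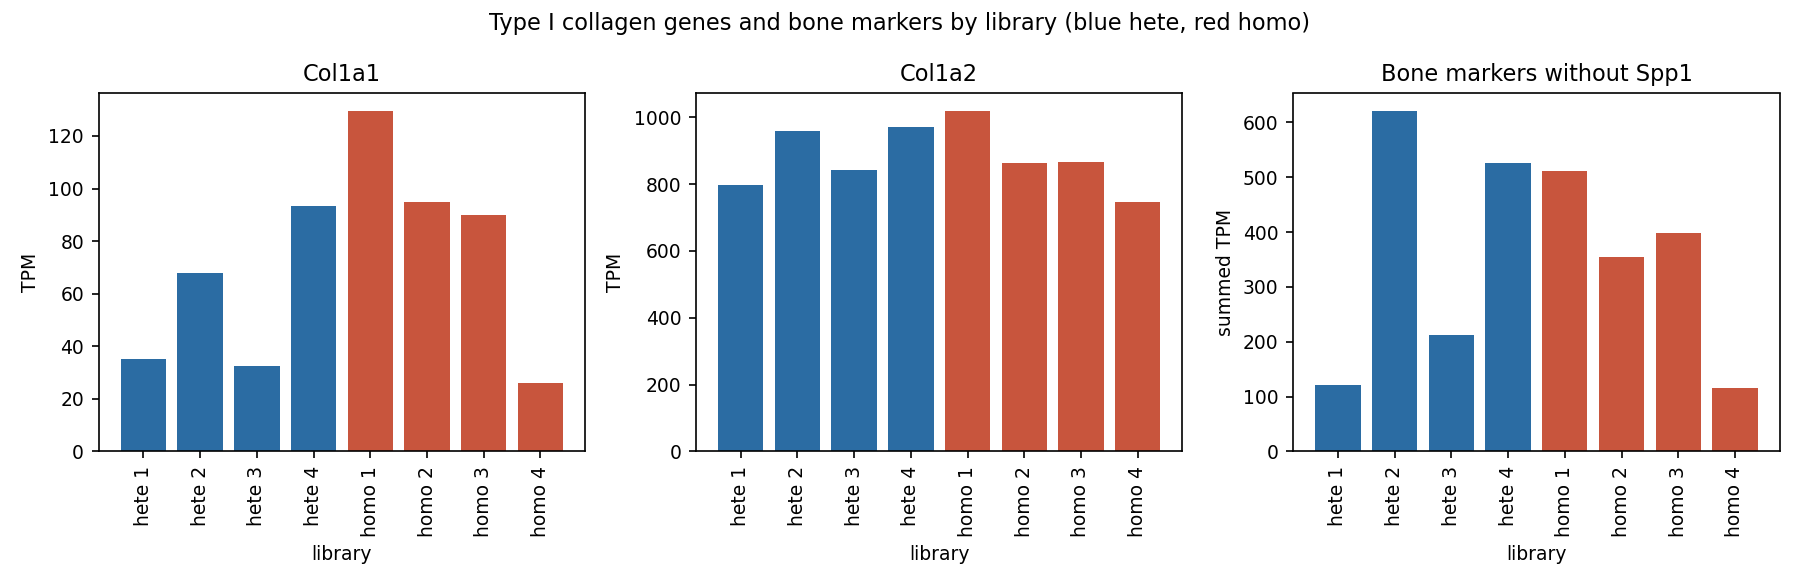
TPM of Col1a1 and of Col1a2 and the summed TPM of 10 bone markers (all but Spp1) in each library, hete in blue and homo in red, with every axis starting at 0. Col1a1 and the bone sum are lowest in hete replicates 1 and 3 and homo replicate 4, while Col1a2 varies 1.37-fold. Spp1, the member left out, was not low in homo replicate 4 (794.54 TPM).

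Among the other fibrillar genes, Col5a1, which encodes a chain of type V collagen that starts and thins type I fibrils, was the 1 member whose groups did not overlap. It had 25.59, 29.09, 27.46 and 29.51 TPM in hete and 37.27, 29.55, 32.89 and 32.06 TPM in homo. Every homo value lay above every hete value, though hete replicate 4 and homo replicate 2 were nearly equal. By limma-trend it differed by 0.23 in log2 fold change (SE 0.08) with a 95% interval from 0.04 to 0.42, an unadjusted p of 0.0217 and an adjusted p of 0.745. With 1 library left out, the Col5a1 estimate ranged from 0.17 (without homo replicate 1) to 0.28 (without homo replicate 2). Without homo replicate 1, 0 collagens had an unadjusted limma-trend p under 0.05. Non-overlapping groups were found for 3.99% of all tested genes and for 2.56% of the collagens, and those with homo above hete were 2.58% of all tested genes. Col5a1 lies on chromosome 2, as do Dnajc17, Col9a3 and Col20a1. Col5a2, the partner chain, had 60.6 ± 6.86 TPM in hete and 63.5 ± 8.02 TPM in homo (SD over 4 libraries each; log2 fold change 0.06, SE 0.11), and was 1.73 to 2.40 times Col5a1. Col5a3 had 3.38 to 5.57 TPM.

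Col3a1, the fibril collagen of elastic and vascular tissue, had 340.68, 452.23, 439.17 and 388.60 TPM in hete and 551.41, 379.37, 361.38 and 346.32 TPM in homo. Homo replicate 1 held the highest value of all 8 and the other homo libraries lay within the hete range (log2 fold change -0.00, SE 0.15). Col27a1, a fibrillar collagen of cartilage, ranged from 140.40 to 184.04 TPM (0.12, SE 0.08), and Col24a1, its relative known from bone, from 34.91 to 49.42 TPM (0.07, SE 0.10). Of the 11 fibrillar genes, all tested, 6 were higher and 5 lower with a median log2 fold change of 0.06, which was -0.014 without hete replicate 1 and -0.0087 without homo replicate 1.

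The remaining FACIT genes were well below type IX. Col16a1, found at fibril surfaces in cartilage and skin, had 127 ± 4.96 TPM in hete and 132 ± 10.6 TPM in homo (SD over 4 libraries each; log2 fold change 0.06, SE 0.07). Col14a1 had 53.20 to 87.32 TPM in hete and 64.67 to 84.26 TPM in homo (0.10, SE 0.15), and Col12a1, known from dense connective tissue, 35.29 to 43.32 TPM and 24.36 to 52.41 TPM (0.05, SE 0.21). Hete replicate 4 was the lowest for Col14a1 and homo replicate 4 for Col12a1. Col22a1, which sits at junctions of muscle and tendon and in cartilage, and Col20a1 had means of 2.02 and 1.90 TPM. Of the 8 tested FACIT genes 5 were higher and 3 lower, with a median log2 fold change of 0.03, which ranged from -0.056 without hete replicate 1 to 0.080 without hete replicate 2.

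Type IV collagen has 6 chain genes that lie in head-to-head pairs on opposite strands, and the pairs differed in how alike their members were. Col4a1 and Col4a2, whose product is found in nearly all basement membranes, were almost equal. Col4a1 had 98.34, 113.16, 125.00 and 119.34 TPM in hete and 121.33, 108.62, 119.63 and 116.69 TPM in homo, and Col4a2 had 101.25, 117.71, 126.27 and 121.36 TPM in hete and 112.31, 112.73, 119.98 and 109.31 TPM in homo. The ratio of Col4a2 to Col4a1 was 0.926 to 1.04 over the 8 libraries. In the RefSeq table on GRCm38.p6 their starts on chromosome 8 lie 21 bases apart, and the transcripts overlap at their first bases. The library kit keeps strand, but the sources used here do not say how strand was set in counting. Col4a1 had a log2 fold change of 0.04 (SE 0.08) and Col4a2 one of -0.03 (SE 0.07).

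Col4a3 and Col4a4, chains of the network that also holds Col4a5, were low. Col4a3 had 8.66, 12.22, 9.68 and 24.91 TPM in hete and 10.63, 9.05, 7.94 and 9.11 TPM in homo. Col4a4 had 9.04, 8.32, 9.41 and 16.50 TPM in hete and 10.75, 7.77, 6.74 and 8.98 TPM in homo. Hete replicate 4 was the highest library for both, and the remaining 7 spanned 7.94 to 12.22 TPM for Col4a3. In hete replicate 2 Col4a3 was second highest while Col4a4 was among the lower values, and Col4a4 was 0.662 to 1.04 times Col4a3 over the 8 libraries. The log2 fold changes were -0.44 (SE 0.28) and -0.27 (SE 0.21), with limma-trend adjusted p of 0.870 and 0.884, and were -0.13 and -0.07 without hete replicate 4. The same library had the highest sum of the 7 stria vascularis markers, 2045 TPM against 1399 to 1688 TPM. It also had the highest cartilage marker sum, 4366 TPM against 3159 to 3974 TPM. That sum mostly reflects Epyc (1921 TPM there), Cnmd (1631 TPM) and Ucma (571 TPM). Sox9, Acan, Chad and Snorc were also highest there, but Matn1 (16.91 TPM) and Comp (1.95 TPM) were lowest, and Matn4 and Hapln1 were among the lower values. Neither the stria nor the cartilage list had a member at 0 in all libraries. Of them 7 of 7 and 11 of 12 were tested, and their part in the Col4a3 and Col4a4 values was not tested.

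Col4a5 had 50.28, 52.32, 56.26 and 60.54 TPM in hete and 55.30, 48.41, 54.06 and 53.85 TPM in homo. Col4a6, its neighbour on the X chromosome, had 2.46 to 3.15 TPM in hete and 2.48 to 2.79 TPM in homo. The listed starts of the pair lie 1343 bases apart. Col4a5 was 17.6 to 21.7 times Col4a6, and 2.43 to 6.81 times Col4a3, the low end being hete replicate 4. The log2 fold changes were -0.05 (SE 0.08) and -0.07 (SE 0.12). Of the 6 type IV genes 1 was higher and 5 lower in homo, with a median log2 fold change of -0.06, and none passed the test.

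**Figure D4:**
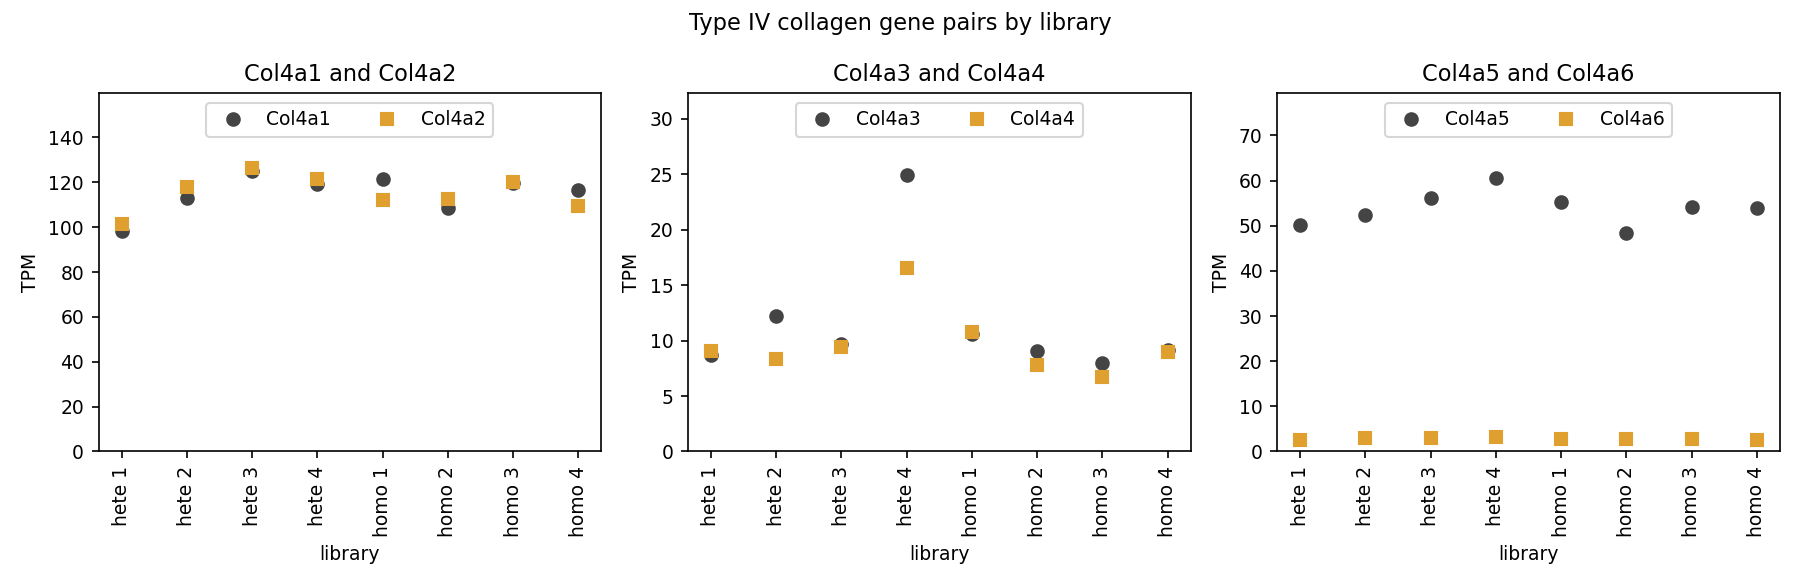
TPM of the 3 type IV collagen gene pairs in each library, with each axis starting at 0. Col4a1 and Col4a2 lie nearly on each other, Col4a3 and Col4a4 share a high value in hete replicate 4, and Col4a5 lies 17.6 to 21.7 times above Col4a6.

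Other collagens belong to the basement membrane zone as well. Col18a1, a multiplexin whose end fragment is endostatin, had 105.47 to 133.40 TPM in hete and 107.83 to 133.47 TPM in homo (log2 fold change 0.08, SE 0.09). Col15a1, its relative, had 79.63 to 96.60 TPM and 72.43 to 93.22 TPM (-0.04, SE 0.09). Col7a1, the anchoring fibril collagen of skin, was low, with 2.89, 6.47, 6.01 and 4.59 TPM in hete and 6.64, 5.92, 6.78 and 6.53 TPM in homo. Hete replicate 1 was its lowest library, and hete replicates 2 and 3 lay within the homo range (0.36, SE 0.19; limma-trend, adjusted p = 0.870). The estimate was 0.17 without hete replicate 1 and 0.48 without hete replicate 2.

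Type VI collagen forms beaded filaments around cells from Col6a1, Col6a2 and Col6a3 chains. Col6a1 had 91.80 to 112.59 TPM in hete and 87.53 to 113.52 TPM in homo, and Col6a2 had 68.75 to 80.42 TPM and 67.42 to 86.11 TPM. Col6a3 was much lower, at 12.82, 17.94, 16.89 and 11.32 TPM in hete and 22.13, 22.06, 25.22 and 12.51 TPM in homo. Homo replicate 4 lay within the hete range and the other homo libraries above it (0.43 in log2 fold change, SE 0.22, with an adjusted p of 0.870 by limma-trend). Col6a1 was 1.30 to 1.44 times Col6a2 in a library, while Col6a2 was 4.44 to 6.61 times Col6a3 in hete and 3.38 to 5.39 times in homo. Col6a6, a chain that can stand in for Col6a3, had 2.90, 1.09, 1.28 and 5.01 TPM in hete and 4.35, 5.11, 3.06 and 3.07 TPM in homo. Hete replicates 2 and 3 were its low libraries, and the estimate of 0.57 (SE 0.32) had an interval from -0.16 to 1.30. The 4 tested genes of this class had a median log2 fold change of 0.21, or -0.01 where at least 5 TPM in 4 libraries was asked, which drops Col6a6.

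The network-forming Col8a1 and Col8a2, known from the endothelium and the cornea, had 68.43 to 83.79 TPM and 41.43 to 47.64 TPM in hete, and 58.51 to 76.85 TPM and 36.40 to 47.81 TPM in homo. Homo replicate 4 was the lowest library for both, and Col8a1 was 1.48 to 2.02 times Col8a2. Col10a1, the marker of enlarged cartilage cells that precede bone, reached only 0.03 to 0.33 TPM. Among transmembrane collagens Col25a1, which takes part in motor nerve growth, had 16.30 to 21.74 TPM in hete and 20.32 to 21.83 TPM in homo (log2 fold change 0.13, SE 0.09). Col13a1, a collagen of the nerve-muscle junction, had 12.04, 15.44, 14.09 and 21.40 TPM in hete and 15.88, 14.79, 13.04 and 11.00 TPM in homo (-0.17, SE 0.17, and -0.023 without hete replicate 4). Col23a1 had 4.84 to 7.97 TPM (0.15, SE 0.14, and 0.034 without hete replicate 1). Hete replicate 4 was the highest library for Col13a1 and the lowest for Col25a1. Col26a1, whose function is little known, had 75.29 to 100.09 TPM in hete and 88.41 to 103.96 TPM in homo (0.15, SE 0.09), and Col28a1, a collagen of peripheral nerve, 1.10 to 3.24 TPM (0.24, SE 0.25, and 0.092 without hete replicate 1). The sum of the 8 Schwann cell markers ranged from 874 to 1473 TPM in hete and 849 to 1755 TPM in homo, and none of them was at 0; their part in the Col28a1 value was not tested. The 5 genes under the filter were Col17a1 (0.02 to 0.42 TPM), Col10a1, Col6a5 (0.01 to 0.17 TPM), Col19a1 (0.02 to 0.13 TPM) and Col6a4, which reached 0.11 TPM and was listed at 0 in hete replicates 1 and 3 and homo replicate 2.

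**Figure D5:**
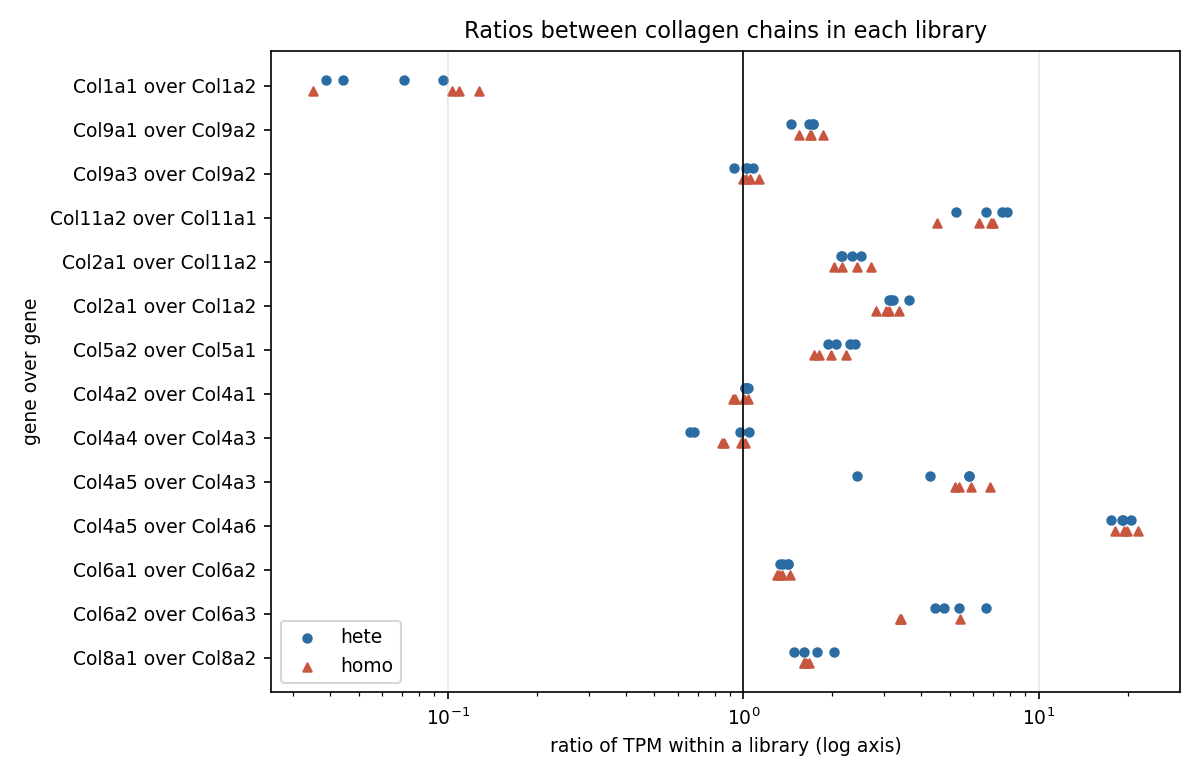
Ratio of the TPM of collagen genes within each library on a log axis, hete as circles and homo as triangles, for 14 pairs. Col1a1 over Col1a2 lies between 0.0349 and 0.127, Col4a2 over Col4a1 near 1, and the groups overlap for all 14 pairs.

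The libraries differed in how many collagens they held at an extreme. Hete replicate 1 had the lowest value for 17 of the 39 tested collagens and the highest for 0, and homo replicate 4 the lowest for 10. Hete replicate 4 held the highest value for 10, homo replicate 1 for 9 and hete replicate 3 for 7. Each genotype thus held a library with many low and a library with many high collagen values. The same count was not made over all tested genes, so these counts cannot be called particular to collagens. The summed collagen level was 10869 TPM in hete replicate 1 and 10988 TPM in homo replicate 4, and 11565 to 12851 TPM in the other 6.

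The genes that make, process, bind and break down collagen were counted in 6 lists of 63 genes, of which 59 were tested. None passed the test over all genes, 36 were higher and 23 lower, where 56.3% of all tested genes were higher, and the median log2 fold change was 0.02, as for all genes. At an unadjusted p under 0.05 there was 1 of 59, P4ha2, against 6.05% of all tested genes. In the hydroxylation and glycosylation list 9 of 15 were higher. P4ha2, a prolyl hydroxylase subunit that lets the triple helix hold, had 34.9 ± 8.50 TPM in hete and 45.4 ± 5.30 TPM in homo (SD over 4 libraries each; 0.40 in log2, SE 0.18, with an adjusted p of 0.822 by limma-trend). P4ha3, another such subunit, stood at 0.29 (SE 0.17). Without hete replicate 4, the lowest library for both, P4ha2 stood at 0.22 and P4ha3 at 0.12. Of the chaperone and secretion genes 7 of 10 were higher, with Tent5a at -0.24 (SE 0.13) and Creb3l1, a factor that turns on type I collagen in bone, at 0.19 (SE 0.11). Serpinh1, the collagen chaperone of the endoplasmic reticulum, had 931 ± 104 TPM in hete and 939 ± 42.1 TPM in homo (SD, n = 4 each).

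Of the procollagen proteases and their enhancers 6 of 8 were higher, with Adamts14 at 0.14 (SE 0.09) and Tll2 at 0.09 (SE 0.12). Of the crosslinking genes 3 of 7 were higher, with Pxdn, which crosslinks type IV collagen, at -0.06 (SE 0.11) and Loxl2, a lysyl oxidase, at -0.06 (SE 0.14). Of the receptors 9 of 10 were tested and 5 were higher, with Lair1, an inhibitory receptor of immune cells, at 0.16 (SE 0.17) and Mrc2, which takes up collagen, at -0.07 (SE 0.10). Of the breakdown genes 10 of 13 were tested and 6 were higher, with Mmp16, a membrane protease, at 0.23 (SE 0.15) and Timp1, a protease inhibitor, at 0.19 (SE 0.13). Mmp1a was listed at 0 in every library. The median of this last list was 0.03, and it ranged from -0.05 without hete replicate 1 to 0.19 without homo replicate 4. No list held a gene that passed the test.

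In the authors' deposited table of gene annotations all 44 collagens carry the pathway Protein digestion and absorption, which lists 108 genes, and 18 carry ECM-receptor interaction, which lists 87. In the authors' deposited table the term sensory perception of sound stands beside Col2a1, Col11a2, Col11a1 and Col1a1. The genes lie on 15 chromosomes.

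The marker lists of other cell types held no called gene either. By list, the 2 members with the smallest p were Otog and Tectb for the sensory epithelium, given above, and Snorc (-0.87) and Ucma (-0.38) for cartilage. They were Fn1 (0.19) and Postn (0.17) for mesenchyme, Vwf (-0.30) and Emcn (0.08) for endothelium, Tagln (-0.20) and Notch3 (-0.14) for mural cells, Egr2 (0.62) and Foxd3 (0.36) for Schwann cells, and Kcnq1 (-0.20) and Kcne1 (-0.19) for the stria. Snorc, a small proteoglycan of cartilage cells, had 3.77, 5.33, 4.48 and 5.58 TPM in hete and 2.73, 2.56, 0.98 and 2.71 TPM in homo, and all homo values lay below all hete values (SE 0.22; limma-trend, adjusted p = 0.581). It was the 1 of 11 tested cartilage markers without overlap, where 3.99% of all tested genes had none in either direction. The cartilage list as a whole had 3 of 11 higher and a median log2 fold change of -0.05. Higher in homo were 8 of 8 Schwann cell markers (median 0.17) and 1 of 7 stria markers (median -0.14). For the sensory epithelium it was 9 of 12, for mesenchyme 8 of 12, for bone 7 of 11, for mural cells 6 of 8 and for endothelium 4 of 8. Of all tested genes 56.3% were higher, and the cause of these directions was not tested.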

How the data were processed

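Polyadenylated RNA of 8 libraries was sequenced, 4 per group, after a strand-keeping preparation from 1 µg of total RNA, per the labels' protocols. The authors deposited TPM with 2 decimals for 78317 genes. The build GRCm39 and the tools RSEM, StringTie, HISAT2, fastp and DESeq2 are named, without roles or versions, per the submitters' processing notes. The authors' deposited gene ontology table gives a p-value and an adjusted p-value per term. Another deposited table, of splicing event numbers, names no gene and was not used. TPM keeps no depth, so no interval or limit from read numbers was computed.

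Genes averaging 1 TPM or more were tested on log2(TPM + 1) with limma 3.58.1 in R 4.3.3 (trend and robust eBayes, genotype only), with Benjamini-Hochberg adjustment over all 17811 genes at 0.05. The steps were tested on simulated data. Members, classes and lists were chosen with earlier results of these data known. Named genes are the 4 highest of each class, members with p under 0.05 or no overlap, and the 2 smallest p of each list; other members, Col1a1 among them, were named after their values were seen. Chromosomes come from GENCODE M21 by gene ID. The listed symbol Ctage5 was found as Mia2, and Col21a1 had no row. Alternatives were 2 scalings, 2 filters, a pseudocount of 0.1, the replicate number as a block, non-robust eBayes and each library left out. Figures were drawn with matplotlib 3.10.9.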

Additional observations from a re-analysis of the deposited data

Results flagged for a closer look

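Of 78 sets of 4 libraries examined (39 genes in each group), 5 held a value far from the other 3, where chance alone gives about 1 in 20. Col3a1 had 551.41 TPM in homo replicate 1 and 346.32 to 379.37 TPM in the other homo libraries. Col11a1 had 235.04 TPM in homo replicate 1 against 177.08 to 178.23 TPM. Col22a1 had 3.60 TPM in homo replicate 1 against 1.22 to 1.57 TPM. Col4a4 had 16.50 TPM in hete replicate 4 against 8.32 to 9.41 TPM. Col16a1 had 134.41 TPM in hete replicate 3 against 124.27 to 124.83 TPM.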

How the results depend on the processing

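No collagen passed the test under any of the 15 alternatives, the lowest adjusted p being 0.631 (0.745 in the analysis reported). Of 579 log2 fold changes of collagens under the alternatives, 543 kept their sign, and 23 of 39 genes did so throughout. The median over the collagens ranged from -0.05 (without hete replicate 1) to 0.05 (without hete replicate 2). Collagens at an unadjusted p under 0.05 numbered 0 to 3 with 1 library left out. The number of all genes changed was 2, and 1 with no filter on low values, 1 with the replicate block, and 1 to 5 with 1 library left out. Libraries of the same number did not deviate together (correlations of -0.0837 to 0.0491, against -0.0760 to 0.0610 for other pairs), so the replicate number was taken as a name only. With quantile normalization Col3a1 stood at 0.019. With 1 library left out in turn, the genes whose sign turned ranged as follows, all without passing the test: Col1a2 -0.11 to 0.041, Col3a1 -0.15 to 0.070, Col11a1 -0.10 to 0.11, Col4a1 -0.032 to 0.083, Col4a2 -0.10 to 0.0053, Col6a1 -0.10 to 0.036, Col15a1 -0.10 to 0.023, Col6a2 -0.069 to 0.047, Col14a1 -0.046 to 0.19, Col5a2 -0.0087 to 0.13, Col8a2 -0.10 to 0.025. The others were Col24a1 -0.014 to 0.15, Col12a1 -0.075 to 0.28, Col5a3 -0.015 to 0.17, Col22a1 -0.24 to 0.22, Col20a1 -0.043 to 0.15, Ifitm5 -0.031 to 0.63, Tll2 -0.0074 to 0.14, Mrc2 -0.14 to 0.00088, Pxdn -0.16 to 0.019 and Loxl2 -0.15 to 0.058. Medians of the fibrillar, FACIT and multiplexin classes turned sign too, the last to -0.016 without hete replicate 1. The cause of these turns was not tested. TPM gives no read numbers, so what depth limits is unknown, and members of a few TPM have wide intervals.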
